A study of Mus musculus with 8 samples.

Results

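The interval of chromosome 4 from 40 to 46 Mb (mouse build mm9) holds a cluster of repeated genes that includes copies of the chemokine genes Ccl21, Ccl19 and Ccl27a, of the interleukin 11 receptor gene Il11ra1 and of the Fam205 genes. All non-control probes whose array position starts in the interval were taken, which gave 259 of 56605 probes. The interval was picked because its strain difference was already known, so the strain differences of its probes are a description. Where a probe is said below to be called, this gives its place in the fit over all probes and is no independent test of the interval.

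Whole cerebral cortex and striatum of 4 male B6 mice (C57BL/6J, all 4 months old) and 4 male BTBR/R mice (BTBRTF/ArtRbrc, 1 of them 6 months old and the others 4 months old) was measured on 8 Agilent one-colour microarrays, 1 array per mouse. BTBR/R is a subline of the BTBR mouse, which is studied in relation to autism spectrum disorder, and B6 was the comparison strain. Both are inbred lines with no further treatment in the labels. The arrays were scanned together on 1 slide, with B6 in 1 column of the slide and BTBR/R in the other, so an effect of the column cannot be told apart from one of strain.

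CCL21 and CCL19 are chemokines that bind the receptor CCR7 and draw lymphocytes and dendritic cells into lymph nodes along lymphatic vessels. In the mouse, Ccl21 exists as several nearly identical genes, and the labels of the array name Ccl21a as the serine form. CCL27 binds CCR10 and is best known from skin, where it attracts T cells. Il11ra1 encodes the alpha chain of the interleukin 11 receptor, which signals through the shared chain gp130 (Il6st), and the Fam205 genes encode proteins of little known function. RefSeq (build GRCm38.p6) places 51 genes between Il11ra1 and Phf24. Of these, 20 are protein coding, 24 are pseudogenes and 7 are long non-coding RNAs. They include 5 genes that carry the older Ccl21 name 6Ckine and 4 copies of Fam205a, and 17 of the 51 are listed in the annotation of a probe in the interval.

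Because of these repeats a probe seldom stands for a single gene here. The array annotation holds at most 4 entries for a probe of the interval, so a copy that is not listed may still match the probe. The Ccl21 probes are shown first because they differ in which copies they list. The probe named Gm1987 (chr4:42232105-42232164) lists Gm1987 and Ccl21a, while the probe named Gm13304 (chr4:41775274-41775333) lists Gm13304, Gm10591, Ccl21b and Ccl21d. The best ungapped alignment of the pair spans 52 bases, of which 50 are identical. The 30 bases below hold 1 of the 2 differences, in capitals, which is T6C when the Gm1987 base is given first and positions are counted from 1 at the first base shown.
Gm1987 probe: gccctTcccttgtccttgcacctatgattt
Gm13304 probe: gccctCcccttgtccttgcacctatgattt

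The probe named Ccl21a (chr4:42231835-42231894) lists Ccl21a, Gm1987, Gm13304 and Gm10591. Its first 30 bases, which belong to another stretch of the transcript than the pair above, are given for reference.
Ccl21a probe: tggttcacggtccaactcacaggcaaagag

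The upstream sequences of Ccl21a and Gm13304 are shown because these copies share probes and were lower together. RefSeq (GRCm38.p6) gives a start for Ccl21a on the minus strand and for Gm13304 on the plus strand, and 247 of the 249 aligned bases before the start are identical. For Ccl21b no such likeness was found. The sequence listed for it, in its best ungapped alignment over the 300-base windows, was 33.6% identical to that of Ccl21a and 34.1% to that of Gm13304. This is close to the 32.5% between the unrelated Ccl19 sequence and that of Ccl21a. The alignment allowed no gaps and only small shifts, so it cannot tell a different sequence from one listed at a shifted start. The differences between the pair shown, in capitals, are T141C and T143C with the Ccl21a base first and positions counted from 1 at the first base shown.
Ccl21a promoter: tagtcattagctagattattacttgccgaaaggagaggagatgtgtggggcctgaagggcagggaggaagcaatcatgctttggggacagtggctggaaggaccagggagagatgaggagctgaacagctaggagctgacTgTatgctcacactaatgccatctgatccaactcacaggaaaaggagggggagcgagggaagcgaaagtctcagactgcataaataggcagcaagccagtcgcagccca
Gm13304 promoter: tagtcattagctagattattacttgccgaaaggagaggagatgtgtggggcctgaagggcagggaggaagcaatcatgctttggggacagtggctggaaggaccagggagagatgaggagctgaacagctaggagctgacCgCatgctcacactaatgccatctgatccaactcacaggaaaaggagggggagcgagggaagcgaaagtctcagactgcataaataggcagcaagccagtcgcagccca

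A Ccl27a probe (chr4:41720610-41720669) and a Gm20878 probe (chr4:41812765-41812824) are shown because they are alike in sequence and lie on either side of the edge described below. They share 53 of 60 bases, and all 7 differences, in capitals, fall in the first 30 bases.
Ccl27a probe: tCGGAGCccCggacatgtcgcgattgagga
Gm20878 probe: tTCAGAGccTggacatgtcgcgattgagga

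The last 3 sequences are whole probes. They are a Fam205a2 probe, the Gm9615 probe and the only probe of Ccl19 on the array. The Fam205a2 probe had the largest fold change of the Fam205 probes. Gm9615 had the largest among predicted genes outside the Ccl21 family, counting only probes placed in the interval and detected on every array. The 3 probes lie at chr4:41841838-41841897 for Fam205a2, chr4:42213341-42213400 for Gm9615 and chr4:42250105-42250164 for Ccl19.
Fam205a2 probe: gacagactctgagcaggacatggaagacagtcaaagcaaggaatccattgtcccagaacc
Gm9615 probe: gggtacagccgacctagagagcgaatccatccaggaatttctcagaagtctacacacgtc
Ccl19 probe: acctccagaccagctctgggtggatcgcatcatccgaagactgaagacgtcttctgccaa

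Levels are given as log2 of the processed signal over the 75th percentile of the same array, so 0 is the level of that percentile, and differences are BTBR/R minus B6 on the log2 scale with the standard error (SE) of the linear model. A probe is called when its difference was at least 2-fold with an adjusted p below 0.05 (limma, Benjamini-Hochberg over all 56605 probes), and detected when the scanner software marked it as well above background. The lowest detected signal was between 14.5 and 17.8 on the B6 arrays and between 36.1 and 47.1 on the BTBR/R arrays, and 64.5 to 66.8% of probes were detected on the B6 arrays against 53.5 to 57.2% on the BTBR/R arrays. Of the 259 probes, 159 were detected on all 8 arrays, 199 in all 4 mice of one strain or both and 40 on no array. No probe was saturated, and the 4 mice per strain limit the precision of every value below. Cortical and striatal markers were present, with 5 of 5 cortical and 6 of 6 striatal neuron markers detected on all 8 arrays.

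In the interval, 16 probes were called lower in BTBR/R, all of them detected in all 4 B6 mice, and 24 were called higher. Over all probes 2.27% were called lower and 20.2% higher, and nothing is read from the members' counts since the interval was chosen on this comparison. Among probes detected in all 4 mice of one strain or both, 16 of 199 in the interval were called lower and 0 were called higher, beside 3.38% and 1.03% of such probes over the whole array. Of the 24 called higher, 23 were detected on no array. With the normexp background correction 11 of the 259 were called lower and 0 higher, beside 0.587% and 0.408% over all probes.

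By position, 13 of the 16 probes called lower lay in a single stretch. From Gm13304 (start 41775274) to 4933409K07Rik (end 42472769), a length of 697 kb, there were 16 probes, all detected on every B6 array, and all 16 were lower in BTBR/R with no overlap between the mice of the strains. Of these, 13 were called. The median of the 16 fitted differences was -2.89, and they ran from -6.82 to -0.31. Of the 16 probes, 4 were not detected in all BTBR/R mice. The median was -2.02 with these 4 at their bounds and -1.77 after the normexp correction. In the rest of the interval 3 of 243 probes were called lower, and 140 of the 147 probes detected on all 8 arrays differed by less than 0.5 between the strains. The median difference of the 183 detected probes outside the stretch was 0.03.

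**Figure D1:**
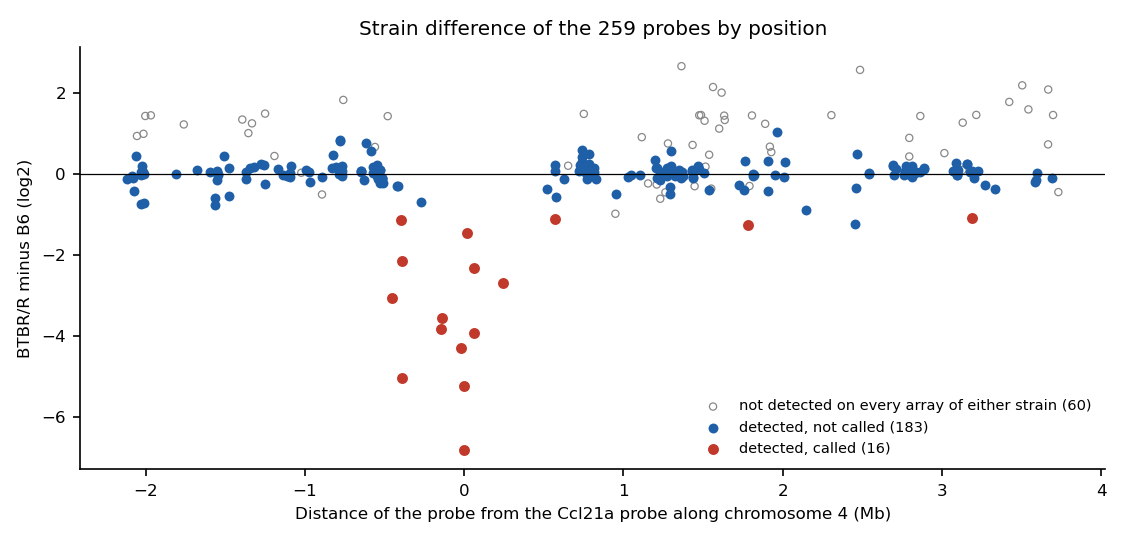
The difference between the strains (BTBR/R minus B6, log2) is plotted against the distance of each of the 259 probes from the Ccl21a probe in Mb; filled points are probes detected in all 4 mice of one strain or both and open points are the other 60. Of the 16 detected and called probes 13 lie from Gm13304 to 4933409K07Rik, the lowest at -6.82, and the open points lie mostly above 0.

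In bins of 0.5 Mb, the bin from 42 to 42.5 Mb had 9 probes, all called lower, with a median fitted difference of -3.84. Of the 9, 4 were not detected in all BTBR/R mice, and the median was -2.71 with these at their bounds and -2.54 after the normexp correction. The bin below it, from 41.5 to 42 Mb, had a median of -0.12 over 25 detected probes and 4 called lower. The bin above it, from 42.5 to 43 Mb, had a median of 0.06 over 13 detected probes and 1 called lower. In the other bins of the interval the medians of detected probes ran from -0.18 to 0.05. In the 6 Mb below the interval, 3 of 35 detected probes were called lower and 1 higher, and in the 6 Mb above it 0 of 68 were called in either direction by limma or by the methods' test (20 had an unadjusted limma p below 0.05). The median differences there were -0.07 and 0.03.

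**Figure D2:**
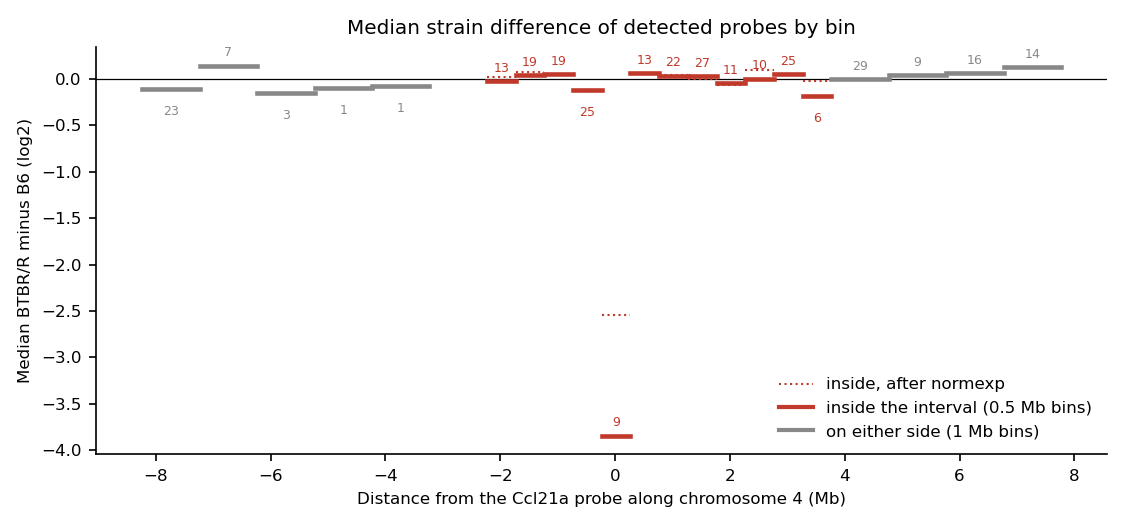
The median difference (BTBR/R minus B6, log2) of detected probes is plotted by bin against the distance from the Ccl21a probe in Mb, with red lines for 0.5 Mb bins inside the interval, grey lines for 1 Mb bins on either side dotted lines for the normexp values inside it and the number of detected probes beside each line. The bin that holds Ccl21a lies at -3.84, or -2.54 after normexp, and the other medians lie near 0.

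The Ccl21 genes encode the CCR7 ligand of lymphatic vessels and lymph nodes. Of their 3 probes, those named Ccl21a and Gm1987 had the largest differences of the interval. The Ccl21a probe had levels of 3.08, 3.09, 3.05 and 3.27 in the B6 mice and of -3.72, -3.65, -3.56 and -3.86 in the BTBR/R mice. All 4 B6 mice were far above all 4 BTBR/R mice, and the probe was detected on every B6 array but on only 1 of the 4 BTBR/R arrays, the one with the lowest detection limit of that strain. The difference was -6.82 ± 0.08 (SE). Because most BTBR/R arrays gave only a bound, the B6 level was at least 108-fold higher, and at least 46.5-fold higher after the normexp correction.

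The Gm1987 probe, which lists Ccl21a beside Gm1987, had levels of 4.42, 4.38, 4.44 and 4.53 in the B6 mice and of -0.88, -0.80, -0.80 and -0.74 in the BTBR/R mice. The signal stayed detected on all 8 arrays, and it was 37.9-fold lower in BTBR/R (-5.24 ± 0.05). The Gm13304 probe, whose 4 listed entries include Ccl21b and Ccl21d and not Ccl21a, had levels of 5.0, 4.94, 4.97 and 5.13 in the B6 mice. In the BTBR/R mice its levels were 1.90, 2.03, 1.87 and 1.96. It was 8.40-fold lower (-3.07 ± 0.06), and the BTBR/R mice kept a level above the 75th percentile of their arrays. The spread between mice of a strain was small beside these differences, with an SD from 0.06 to 0.13 for the 3 probes.

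The Ccl19 probe, for the second CCR7 ligand, had levels of -1.15, -1.26, -1.01 and -0.94 in the B6 mice and of -2.54, -2.60, -2.83 and -2.23 in the BTBR/R mice. It was detected on all 8 arrays and the strains did not overlap. The difference was -1.46 ± 0.13, and -0.89 after the normexp correction, where it was no longer called. In these bulk samples fewer cells that make a transcript and less RNA per cell cannot be told apart.

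The 3 probes of Fam205a2, named Gm13298 on the array, did not differ by the same amount although they lie within 5 kb of mm9. At chr4:41836929-41836988 the levels were 0.26, 0.48, 0.41 and 0.39 in the B6 mice and -0.73, -0.74, -0.90 and -0.64 in the BTBR/R mice, a difference of -1.14 ± 0.07. This probe lists Fam205a2 alone. The probe that also lists Fam205a1 and 4933409K07Rik (start 41838111) differed by -2.16 ± 0.07, with levels of 0.71, 0.76, 0.81 and 0.70 in B6 and of -1.53, -1.37, -1.50 and -1.27 in BTBR/R. The probe printed above, which also lists Fam205a1 and Gm3893, had levels of 3.71, 3.80, 3.70 and 3.64 in B6 and of -1.34, -1.14, -1.57 and -1.24 in BTBR/R. It was 32.9-fold lower (-5.04 ± 0.10). All 3 were detected on all 8 arrays with no overlap between the strains. The probe of Fam205c (BC049635, start 42884620), at the upper end of the repeats, was detected on 1 B6 array and no BTBR/R array, so no difference is given.

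Non-coding and predicted transcripts of the stretch were also among the lower probes. The probe of 4933409K07Rik (chr4:42472710-42472769), a non-coding RNA at the upper edge of the stretch, had levels of 2.60, 2.67, 2.70 and 2.62 in B6 and of -0.15, 0.12, -0.15 and -0.08 in BTBR/R, a difference of -2.71 ± 0.07. The probe of Gm9615 had levels of 2.85, 3.02, 2.90 and 2.86 in B6 and of -1.58, -1.32, -1.39 and -1.36 in BTBR/R. It was 19.9-fold lower (-4.32 ± 0.07). The probe of Gm17081 (start 42290314) had levels of 1.46, 1.61, 1.56 and 1.55 in B6, and its levels in BTBR/R, -2.11, -2.59, -2.87 and -2.02, were more spread than those of the other probes of the stretch detected on all arrays (SD 0.40). Its difference was -3.94 ± 0.19.

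For 3 predicted transcripts no BTBR/R array was well above background while all 4 B6 arrays were, so only bounds can be given. The B6 level was at least 3.67-fold higher for Gm13301 (start 42087702), at least 3.40-fold higher for Gm21075 (start 42089599) and at least 2.19-fold higher for Gm21158 (start 42292466). With the normexp correction the bounds were 1.86, 1.90 and 1.40. The mean level in B6 was -1.83 ± 0.07 (SD, n = 4) for Gm13301 and -1.94 ± 0.03 for Gm21075.

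**Figure D3:**
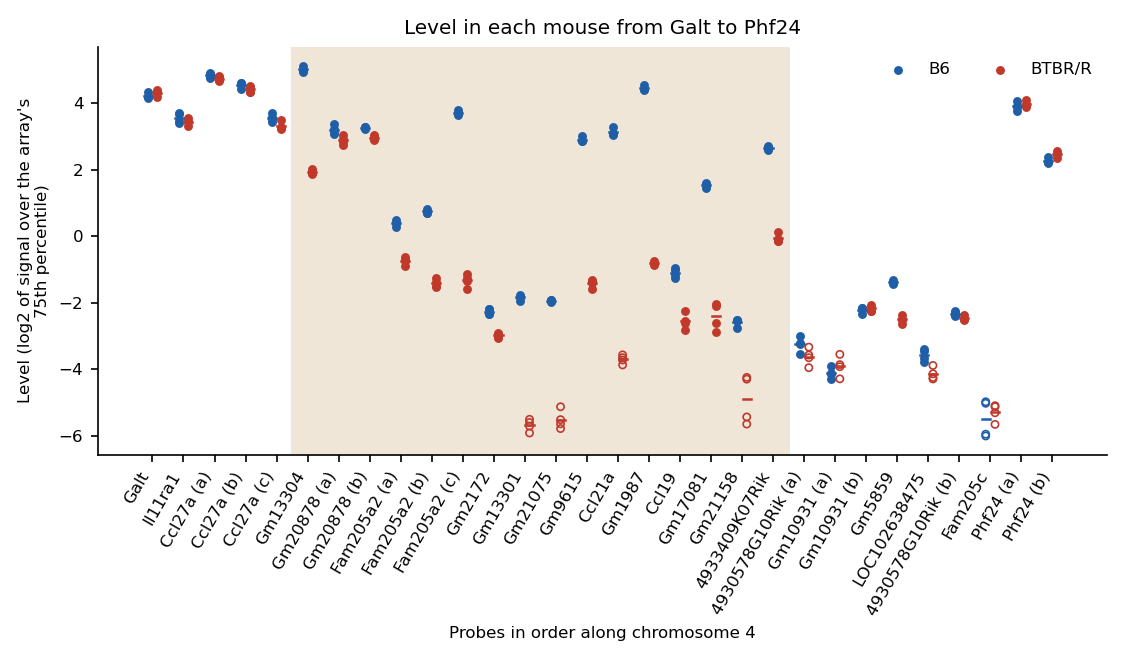
Each point is the level of 1 mouse (log2 of signal over the 75th percentile of its array) for the detected probes from Galt to Phf24 in their order along the chromosome, with B6 in blue, BTBR/R in red, short lines for the mean of the 4 mice, and open points where a strain was not detected on all 4 arrays. Inside the shaded stretch from Gm13304 to 4933409K07Rik the red points of every probe lie below the blue ones, while Il11ra1, Ccl27a and Phf24 on either side are nearly level.

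Within the stretch 3 probes were not called. The 2 Gm20878 probes were detected on all 8 arrays and each differed by -0.31 (SE 0.09 and 0.05). The first of them (start 41812765) had levels of 3.08, 3.21, 3.12 and 3.37 in B6 and of 2.82, 2.75, 2.93 and 3.03 in BTBR/R. The strains did not overlap, but the gap between the lowest B6 and the highest BTBR/R mouse was narrow. Gm2172 (start 41961685), a cDNA from spinal cord, differed by -0.71 ± 0.06, with levels from -2.34 to -2.19 in B6 and from -3.06 to -2.89 in BTBR/R. It is the only one of the 16 probes that is on the minus strand.

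The values changed at the edges of the stretch as follows. Edges and distances use the positions the array gives, which may not be the only ones for a probe that lists several copies. The last detected probe below it was a Ccl27a probe, 54.6 kb before Gm13304, with levels of 3.44, 3.58, 3.49 and 3.70 in B6 and of 3.25, 3.24, 3.28 and 3.48 in BTBR/R. The strains overlapped there, and the difference was -0.24 ± 0.08. The other 2 Ccl27a probes, which also list Ccl27b and Gm13306, differed by -0.10 ± 0.06 and -0.13 ± 0.07. Il11ra1 (start 41716285), whose probe also lists the copy Gm13305, had levels of 3.46, 3.69, 3.69 and 3.40 in B6 and of 3.31, 3.47, 3.55 and 3.42 in BTBR/R, a difference of -0.12 ± 0.09 with overlap. Il11ra2, another copy that RefSeq places among the repeats, is listed by none of the 259 probes.

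Above the stretch the next detected probe, of the RIKEN transcript 4930578G10Rik, lay 277 kb away. Only 2 BTBR/R mice gave a detected signal, and the strains overlapped. The B6 level was at least 1.2-fold higher, or at least 1.01-fold after the normexp correction. Of the 7 probes from there to Fam205c, only Gm5859 (start 42803957), a predicted pseudogene, was called. It had levels of -1.40, -1.43, -1.32 and -1.37 in B6 and of -2.52, -2.64, -2.35 and -2.48 in BTBR/R, a difference of -1.12 ± 0.07, or -0.72 and not called after the normexp correction. LOC102638475 (start 42807674), detected on all B6 arrays and no BTBR/R array, had a B6 level at least 1.1-fold higher, or at least 1.07-fold after the normexp correction, and was not called. The probe Gm10931 next to Gm5859 (start 42803491) differed by 0.05 ± 0.07, with the strains overlapping. The 2 probes of Phf24, the first gene above the repeats, differed by 0.06 ± 0.08 and 0.20 ± 0.06.

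**Figure D4:**
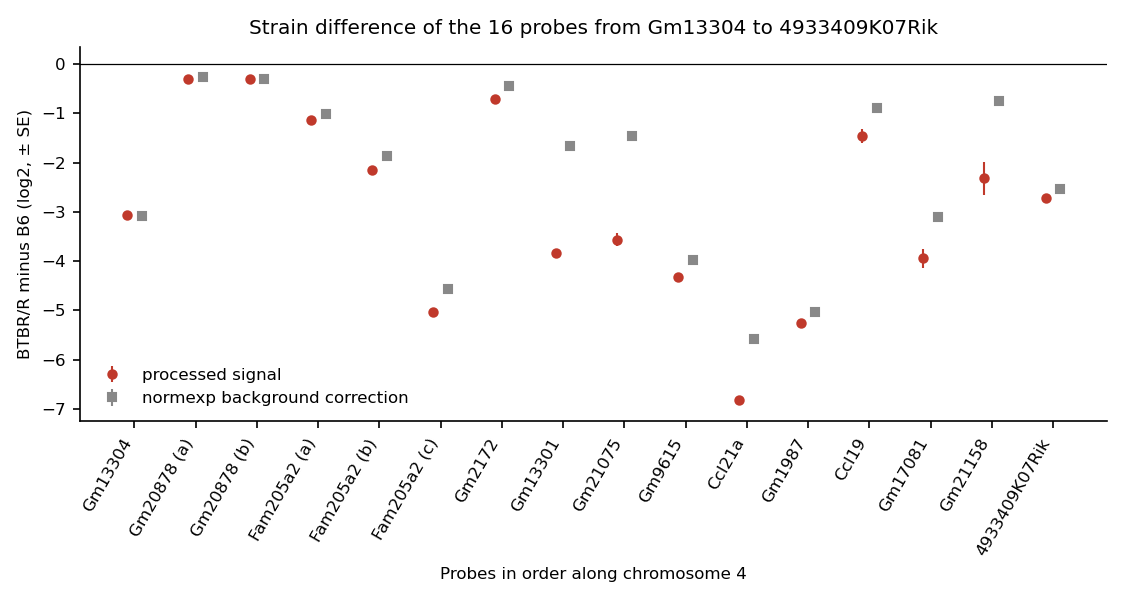
The difference (BTBR/R minus B6, log2, with SE bars that are often smaller than the symbol) is plotted for the 16 probes from Gm13304 to 4933409K07Rik in chromosome order, from the processed signal (red circles) and after the normexp background correction (grey squares). All values are below 0 under both, and those of the dim probes Gm13301, Gm21075 and Gm21158 shrank most, to -1.67, -1.46 and -0.75.

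The genes on either side of the repeats were close to equal between the strains. Below them, Aco1, the cytosolic aconitase that also binds iron response elements, differed by -0.06 ± 0.04, and Aptx, a DNA strand break repair protein, by 0.04 ± 0.06. Dnaja1 and Bag1, which act with the Hsp70 chaperones, differed by 0.05 ± 0.05 and 0.13 ± 0.04. B4galt1, a galactosyltransferase, differed by 0.14 ± 0.06. Galt, an enzyme of galactose metabolism, differed by 0.08 ± 0.07.

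Above the repeats, Vcp, an ATPase of protein quality control, differed by 0.08 ± 0.04, and Unc13b, which primes synaptic vesicles, by -0.04 ± 0.07. Tln1 (talin, which links integrins to actin), Gba2 (a glucosylceramidase), Npr2 (a natriuretic peptide receptor), Clta (a clathrin light chain) and Gne (of sialic acid synthesis) had differences between -0.04 and 0.08. Reck, an inhibitor of metalloproteinases, differed by -0.27 ± 0.10, with the strains overlapping. Dnajb5, a heat shock protein, had the largest difference of these fixed genes. Its brightest probe had levels of 3.05, 3.02, 3.12 and 3.11 in B6 and of 3.49, 3.72, 3.67 and 3.71 in BTBR/R, 1.49-fold higher in BTBR/R with no overlap (0.57 ± 0.06). It was not called.

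The Cntfr probes, for the receptor of ciliary neurotrophic factor, went different ways. The brighter probe (start 41604532) differed by -0.16 ± 0.08 and the other (start 41616756, transcript variant 3) by 0.74 ± 0.10, with levels from all 4 BTBR/R mice above those of B6. Among probes detected on all 8 arrays the largest positive differences of the interval were those of 1110017D15Rik, with 0.81 ± 0.11 and 0.83 ± 0.26 for its 2 probes. The strains overlapped for the second of them, and the gene was singled out after its values were seen. The other 2 probes called lower, BC027109 (start 44016483) and BC058985 (start 45422439), were detected on all 4 B6 arrays and on no BTBR/R array. The B6 level of BC027109 was at least 1.11-fold higher, and for BC058985 no fold can be given.

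At the borders of the interval nothing was called. The first probe inside, of Aco1 (start 40114200), was detected on all 4 B6 arrays and no BTBR/R array, so no difference is given, and the nearest outside (start 39664881, unnamed) was detected on no array. The last inside, of Ccdc180 (E230008N13Rik, start 45963470), was detected on 3 B6 arrays and no BTBR/R array, and the nearest outside, of Tdrd7 (start 46047484), differed by 0.22 ± 0.06.

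The receptors and signalling partners of these ligands lie elsewhere in the genome and were not used to choose the interval. None of the 19 genes of this list had a called probe that was detected in all 4 mice of a strain, in the deposited signal or in any of the other settings tried. Of the 24 detected probes of the list, 6 had an unadjusted p below 0.05, beside 13063 of 35539 detected probes over the whole array, and those with an adjusted p below 0.05 over all probes changed by under 2-fold. The median difference over the 24 was 0.03, beside -0.02 over all detected probes of the array.

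Ccr7, the receptor of CCL19 and CCL21, was not detected on any BTBR/R array and on 1 B6 array by 1 of its 2 probes, so no level can be compared. Ackr4, which removes these chemokines, was detected on 1 BTBR/R array alone. Ccr10, the receptor of CCL27, was detected on 2 B6 arrays and no BTBR/R array, so no level can be compared. Its fitted difference was -0.84 ± 0.20 (limma adjusted p = 0.013), but only -0.10 ± 0.06 after the normexp correction. Ccl28, the other ligand of CCR10, was detected on 3 B6 arrays and no BTBR/R array by its brighter probe, with a fitted difference of -2.47 ± 0.68 (limma adjusted p = 0.024). This probe was called, also after the normexp correction (-1.08 ± 0.23), but its signals near the detection limits give no fold. A probe each of Ccr7 and Il6st was called higher while detected on no array. Il6st, the shared signalling chain of the interleukin 11 receptor, differed by -0.07 ± 0.06 with an adjusted p of 0.404 (limma).

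Lifr encodes the receptor of leukemia inhibitory factor, which signals together with Il6st. A Lifr probe detected on all B6 arrays and 1 BTBR/R array had a B6 level at least 1.19-fold higher, or at least 1.09-fold after the normexp correction, while the 2 Lifr probes detected on all 8 arrays differed by 0.03 ± 0.05 and -0.02 ± 0.07.

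Markers of cells that could hold CCL21 or CCR7 transcripts were looked at in the same arrays. Of 4 lymphatic endothelial markers, 2 (Prox1 and Pdpn) were detected on all 8 arrays. Lyve1 was detected on 3 B6 arrays and no BTBR/R array, and Flt4 on no array. The summed level of the list, as signal over the 75th percentile, ran from 3.16 to 3.87 in B6 and from 4.01 to 4.59 in BTBR/R. Most of this sum came from Pdpn, the brightest gene of the list. The strains did not overlap for Pdpn but overlapped for both Prox1 probes, so the separation of the sums rests on Pdpn. Whether the sum measures the amount of lymphatic cells was not tested. Of 7 lymphocyte markers, 2 were detected on all 8 arrays, and the B cell marker Cd79a was detected on none. Their summed level ran from 2.47 to 2.55 in B6 and from 2.53 to 3.22 in BTBR/R. All 6 meningeal fibroblast markers were detected on all 8 arrays, with summed levels from 11.7 to 14.8 in B6 and from 11.3 to 13 in BTBR/R. No detected probe of the 3 lists was called by limma, and 1, 2 and 4 of their detected probes in that order had an unadjusted p below 0.05. The lymphatic one was Pdpn, higher by 0.34 ± 0.07 in BTBR/R with a limma adjusted p of 0.008. The 2 Prox1 probes differed by -0.15 ± 0.19 and -0.02 ± 0.23. Over detected probes the median difference was -0.02 for the lymphatic list, -0.06 for the lymphocyte list and -0.34 for the fibroblast list. The part of such cells in the differences of the chemokine genes was not tested.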

How the data were processed

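Total RNA of cerebral cortex and striatum was labelled with Cy3 and hybridised to Agilent 60-base probe arrays. The deposited scanner files hold the intensity of each spot after the authors' run of Agilent Feature Extraction 10.7.3.1, background-subtracted and with detection flags. The series table holds log2 values that the authors made from the same arrays, used as an alternative. Here control spots and outlier spots were left out, spots of a probe were averaged, and log2 of the processed signal was taken minus each array's 75th percentile. Strains were compared with limma 3.58.1 in R 4.3.3 (lmFit, eBayes, Benjamini-Hochberg). On simulated data 98 of 100 probes changed by 2 on the log2 scale and 100 of 100 changed by 3 were recovered, with 4 false calls among 56583 probes. The changes were put only into probes detected on all arrays, and the simulation held no strain difference in background or detection limit. It therefore does not give the recovery of dim probes or the rate of false calls in the real arrays. For a probe not detected on all arrays of 1 strain, the fold bound sets the other strain's mean against the mean, over those arrays, of the higher of the array's lowest detected signal and the probe's own. Alternatives were normexp on mean and background signal (offset 50), quantile, median, detected-probe and spike-in scaling, the authors' values, 2 filters on dim probes, the methods' test, limma with trend, the replicate number as a block and leaving out each mouse.

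Named were all probes of the Ccl21, Ccl19, Ccl27, Il11ra and Fam205 genes, the other called and detected probes, a fixed list of neighbouring genes by their brightest probe, and the probes at the borders. Some genes of the fixed lists are not reported here. The members, gene lists and marker lists were chosen with earlier results of these data known. Positions are mm9 as the scanner files give them. For a probe that lists several copies this is 1 position of several. Current names come from RefSeq (GRCm38.p6), which matched 171 of the 187 RefSeq accessions that name probes here. The number and sequence of these repeats in BTBR/R were not analysed here.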

Additional observations from a re-analysis of the deposited data

Results flagged for a closer look

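Among 80 strain groups of 4 mice tested for a mouse far from the others, over the 40 named probes, 1 was picked out, and chance alone picks out about 1 in 20 such groups. The Gne probe, for an enzyme of sialic acid synthesis, had a level of 1.42 in B6 replicate 4, above the 1.23 to 1.25 of the other 3 B6 mice. The strain difference of Gne was -0.04, and 0.00 without that mouse.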

How the results depend on the processing

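The count of interval probes called lower (16) was 11 with normexp, 13 with a floor at the highest detection limit, 15 with spike-in scaling and 15 to 19 when 1 mouse was left out. The count called higher (24) was 0 with normexp, 0 with quantile normalization, 0 among probes detected on every array of a strain and 0 with the floor, and 23 of the 24 were detected on no array. It was 23 to 25 when 1 mouse was left out. No detected probe was called higher, except 1 without BTBR/R replicate 2 (an unnamed probe starting at 44197846, 1.54) and 1 without BTBR/R replicate 4 (1110017D15Rik, 1.04), a range of 0 to 1. No gene of the signalling list was called in any setting by a probe detected on every array of a strain. Of the 16 called probes, 11 were called in every setting. Ccl19, Gm21158, Gm5859, BC027109 and BC058985 were not called with normexp (-0.89, -0.75, -0.72, -0.32 and -0.16), Gm21158, BC027109 and BC058985 not with the floor (-0.97, -0.11 and 0.00), and BC058985 not with spike-in scaling (-0.99) or without BTBR/R replicate 4 (-0.97). None changed sign. Every called probe of the stretch from Gm13304 to 4933409K07Rik was called in all 8 fits that left out 1 mouse, the Ccl21a difference running from -6.87 to -6.77.

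Replicate numbers did not pair the mice: same-numbered mice had correlations of 0.00, -0.07, -0.04 and 0.16 in their deviations from the strain means, and with the replicate block 16 probes were called lower and 22 higher. Spike-in scaling moved the median of all probes from 0.07 to 0.18. Dim signals limit some of these values. With a higher detection limit on the BTBR/R arrays, a probe detected in B6 alone gives a bound and not a fold.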

Other observations

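A probe that the array design did not place in the interval lists transcripts of the same repeats. The Gm3893 probe, placed on unassembled sequence in mm9, shares 1 listed transcript with the Gm13301 and 4933409K07Rik probes and 1 with the Fam205a2 probe printed above, and RefSeq (GRCm38.p6) has Gm3893, a transcribed pseudogene, among the 51 genes between Il11ra1 and Phf24. Its levels were 3.53, 3.62, 3.56 and 3.58 in the B6 mice and -0.82, -0.63, -0.99 and -0.87 in the BTBR/R mice. It was detected on all 8 arrays, and it was 21.2-fold lower in BTBR/R (-4.40 ± 0.08), or -4.20 after the normexp correction. It was singled out for its annotation, and the comparison is the same one that chose the interval.

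The Gm4262 probe on chromosome 16 lists 4933409K07Rik beside Gm4262. Its levels were 3.80, 3.83, 3.82 and 3.73 in B6 and 3.40, 3.52, 3.40 and 3.51 in BTBR/R, a difference of -0.34 ± 0.05, against -2.71 for the 4933409K07Rik probe of the interval.

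Probes elsewhere that share at least 22 bases in a row with a probe of the interval are few. The interval probe NAP111329-1 (start 45563352) shares such a run with a probe of the ribosomal protein gene Rpl21 on chromosome 5 and with TC1708101 on chromosome 1, and the 3 differed by -0.38, -0.31 and -0.37. The interval's Fam219a probe shares one with Sema4c and AK089156, with differences of 0.05, 0.05 and 0.08. None of the called probes of the interval shared such a run with a probe elsewhere.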
